A study of Pardosa pseudoannulata with 16 samples.

Results

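The clusters described here are the 200 steadiest sequence clusters of middle abundance in a table of whole-spider RNA. They were chosen in 2 steps from 136360 clusters. First, 5851 clusters with a mean of 10 to 100 FPKM over 16 libraries were kept. FPKM is a fragment count divided by sequence length in kilobases, here after an allowance for fragment length, and by the size of the library. Of these, the 200 with the lowest standard deviation (SD) of log2(FPKM + 1) over the 16 libraries were taken as members. Because that SD used every value of every library, levels, spreads and group differences of the members are given as a description, without tests.

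The study exposed field-collected adults of the rice-field wolf spider Pardosa pseudoannulata, a predator of planthoppers and other insects, to soil with urea, a nitrogen fertiliser. RNA of whole spiders was sequenced in 16 libraries, 4 for each of the groups Ck, UL, UM and UH. The design text gives 3 concentrations (0, 200 and 400 mg/kg) over 30 days, while there are 4 groups and the labels give all of them, Ck included, the same treatment, so no concentration was tied to a group. Ck was taken as the reference because that name is commonly used for a control. The labels do not give the sex of the spiders, how many spiders went into a library, or whether replicates came from separate animals.

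Clusters whose RNA level hardly moves between animals are of interest as references. In many animals such genes encode parts of machinery that all cells need, and they are used to set samples on a common scale. FPKM is a share of a library: when a few abundant transcripts take up more fragments, all others are listed lower although nothing else changed. A set that looks steady therefore describes the clusters and the scale together. Clusters carry neither gene names nor sequences in the table, so no function is given for any member and the label of the tissue could not be checked against marker genes.

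Estimated depth was 16.68 to 20.97 M fragments per library (M for mega). Across all tested clusters, libraries correlated at r = 0.754 to 0.908 within Ck, 0.809 to 0.932 within UL, 0.885 to 0.936 within UM and 0.879 to 0.933 within UH. Each r was taken across clusters, which do not count as replicates. By this measure alone, Ck was the least uniform group. The most abundant cluster of the table took 6.22 to 15.9% of the FPKM sum of a library. This share was 6.66 to 7.35% in Ck, 6.22 to 15.9% in UL, 10.5 to 14.7% in UM and 8.28 to 11.8% in UH.

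The members spanned the whole band of abundance. Their means ran from 10.0 to 99.0 FPKM with a median of 20.4, beside a median of 18.4 FPKM in the other 5651 clusters of the band. By level, 97 members lay between 10 and 20 FPKM, 75 between 20 and 50 and 28 between 50 and 100. These were 3.04, 3.84 and 3.96% of the clusters in each class, so no class of abundance was left out. Every member was above 0 in all libraries, and the lowest single value was 7.88 FPKM, whereas 244 of the other clusters were listed at 0 in at least 1 library. Together the members took 0.670 to 0.858% of the FPKM sum of a library and 1.58 to 1.78% of its estimated fragments.

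The SD of the members ran from 0.0888 to 0.156 on the log2 scale, with a median of 0.136. In the rest of the band the median SD was 0.408 and the highest 3.59. In FPKM, the coefficient of variation of the members over 16 libraries was 6.38 to 12.0%, and the highest library exceeded the lowest by 1.23 to 1.65 times. For the other clusters the median of that ratio was 2.86, not counting clusters with a 0. The set has no natural edge. The last members in were Cluster-9253.48817, Cluster-9253.51624 and Cluster-9253.51710, with SDs of 0.1559, 0.1563 and 0.1565, and the first clusters outside were Cluster-9253.47031, Cluster-9253.48823 and Cluster-9253.49346, with 0.1566, 0.1567 and 0.1568. These 6 clusters ranged from 1020 to 7345 bases and from 10.0 to 28.4 FPKM.

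**Figure D1:**
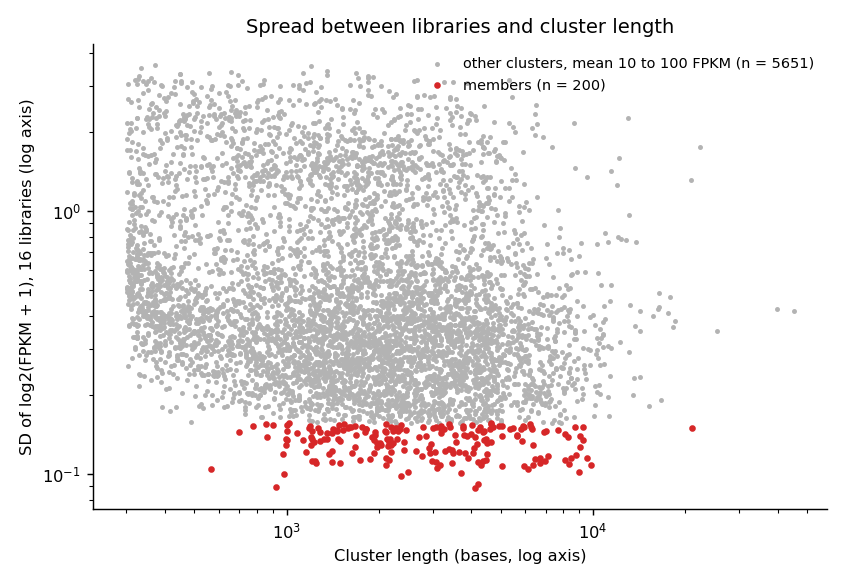
Length of each cluster in bases (log axis) against its SD of log2(FPKM + 1) over 16 libraries (log axis), for the 200 members and the other 5651 clusters with a mean of 10 to 100 FPKM. The members form the lower edge, 565 to 20994 bases long, and 3 of them fall among the clusters of 301 to 856 bases.

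Length was not part of the rule, although the precision of an FPKM value depends on it. The members had a median length of 2820 bases (565 to 20994), beside 1704 bases in the rest of the band and 599 bases over all 136360 clusters. When the band was divided into 4 classes of equal number by length, 3 members fell among clusters of 301 to 856 bases (0.205% of that class), 52 among those of 857 to 1739 bases (3.55%), 56 among those of 1740 to 3176 bases (3.83%) and 89 among those of 3178 bases or more (6.08%). The share of members was lowest in the shortest class and highest in the longest. All 200 members carried the same first number in their names, as did 99.9% of the other clusters of the band.

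Fragment counts followed length and level. A member had a median of 1058 estimated fragments per library, from 120 to 10129, beside a median of 566 in the rest of the band. Counting error alone, computed from these estimates, would give the members a median SD of 0.0421 on the log2 scale. It amounted to 14.2% of their summed variance. For 801 of the other clusters of the band (14.2%) the counting SD alone was above 0.156, the SD of the last member. In the shortest class of length the median counting SD was 0.167, also above that value.

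The steadiest member was Cluster-9253.47578 (4134 bases, SD 0.0888). Its FPKM values were 20.08, 19.71, 20.04 and 20.31 in Ck, 20.73, 20.6, 19.81 and 24.72 in UL, 21.37, 21.43, 19.66 and 20.13 in UM, and 19.7, 19.33, 18.49 and 19.33 in UH. Apart from the high value in UL replicate 4, all libraries lay within 18.49 to 21.43 FPKM. Cluster-9253.55868 (924 bases, SD 0.0896) had 45.95, 46.55, 44.82 and 47.72 FPKM in Ck, 44.81, 41.76, 38.89 and 43.48 in UL, 43.57, 41.81, 43.41 and 39.93 in UM, and 38.85, 39.98, 41.41 and 41.12 in UH. All 4 Ck values lay above every value of the other groups, but narrowly, with 44.82 in Ck replicate 3 and 44.81 in UL replicate 1. Log2 differences from Ck were -0.13 in UL, -0.13 in UM and -0.19 in UH, beside a counting SD of 0.0614. UL, UM and UH overlapped with each other, and UM minus UL was -0.00076.

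Next in order, Cluster-9253.47257 (4228 bases, SD 0.0923) had 60.79, 66, 57.68 and 60.95 FPKM in Ck, 64.99, 66.84, 68.63 and 66.66 in UL, 67.2, 63.15, 60.3 and 62.99 in UM, and 61.41, 63, 58.22 and 73.93 in UH. All 4 groups overlapped, and the highest library was UH replicate 4. Cluster-9253.47303 (2363 bases) held 48 to 50.93 FPKM in Ck, 52.21 to 61.17 in UL, 45.41 to 51.22 in UM and 48.11 to 49.53 in UH, and UL lay above all other groups. Cluster-9253.36848 (983 bases) had 26.84 to 28.96 FPKM in Ck, 28.78 to 34.61 in UL, 29.09 to 31.77 in UM and 25.36 to 31.64 in UH, where all UM values exceeded all Ck values.

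The most abundant member was Cluster-9253.47383 (2953 bases, mean 99.0 FPKM). Its values were 109.43, 84.4, 87.65 and 103.83 FPKM in Ck, 102.17, 87.32, 103.5 and 109.92 in UL, 96.87, 89.71, 92.97 and 100.13 in UM, and 93.3, 111.41, 101.87 and 109.74 in UH. The groups overlapped and none stood apart; UM held the narrowest range, 89.71 to 100.13 FPKM. Cluster-9253.51969 (1459 bases, mean 96.3 FPKM) and Cluster-9253.47475 (1804 bases, mean 93.0 FPKM) followed, the first with 78.95 to 119.39 and the second with 74.72 to 112.42 FPKM over the libraries. At the lower end stood Cluster-9253.40526 (2454 bases), Cluster-9253.48817 (1545 bases) and Cluster-9253.55291 (1679 bases), each with a mean of 10.0 FPKM. They had 415, 242 and 269 estimated fragments per library, which gives counting SDs of 0.0647, 0.0846 and 0.0805.

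The longest member, Cluster-9253.49690 (20994 bases), was also among the 4 members with the greatest range of group means. It had 15.12, 18.09, 16.34 and 17.51 FPKM in Ck, 16.4, 18.15, 17.97 and 19.77 in UL, 17.07, 17, 16.65 and 17.23 in UM, and 13.46, 13.92, 14.03 and 14.58 in UH. Every UH value was below every value of the other groups. The next longest, Cluster-9253.46592 (9850 bases), showed no such order, with 18.07 to 24.5 FPKM in Ck and 18.6 to 20.89 in UH. The shortest member, Cluster-9253.56789 (565 bases), had 31.45, 33.45, 29.9 and 29.81 FPKM in Ck, 30.84, 27.21, 29.58 and 28.24 in UL, 29.89, 29.1, 31.84 and 30.23 in UM, and 30.1, 26.45, 27.51 and 24.8 in UH, and its overall SD of 0.104 was close to its counting SD of 0.109. Cluster-9253.52267 (700 bases) had 12.13 to 16.71 FPKM on 120 estimated fragments per library, with an SD of 0.145 against a counting SD of 0.124.

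**Figure D2:**
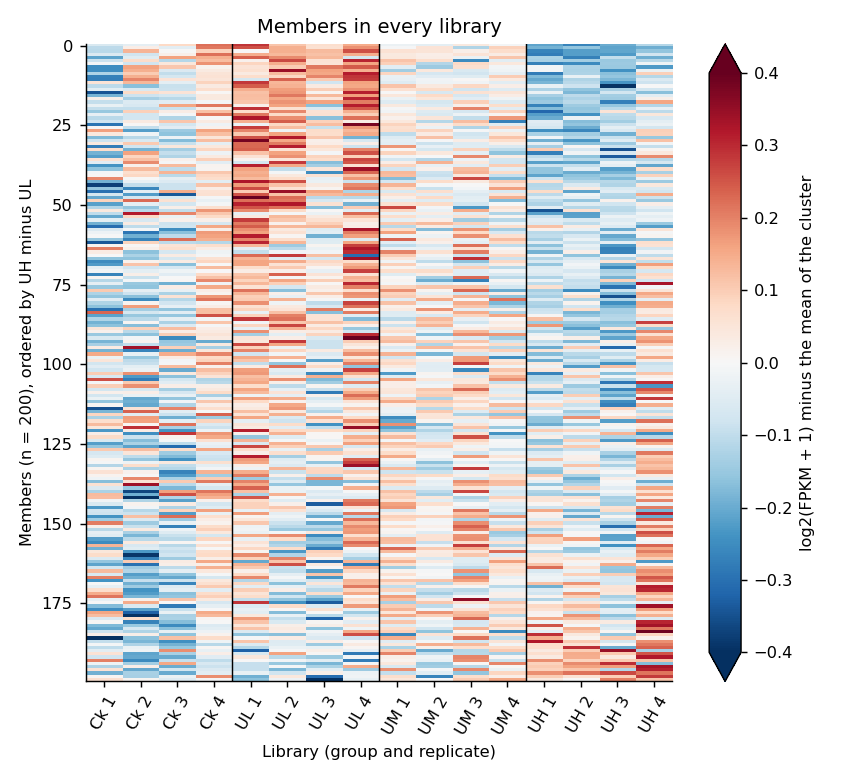
Each row is 1 of the 200 members and each column 1 of the 16 libraries; colour gives log2(FPKM + 1) minus the mean of that cluster, limited to -0.4 to 0.4, with rows ordered by the difference UH minus UL. UL replicates 1 and 4 are mostly above the mean, UH replicate 3 mostly below it, and the UM columns are the palest.

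Small as they were, deviations of the members were shared by library. In UL replicate 1, 156 of 200 members lay above their own mean, and in UL replicate 4 it was 148. In UH replicate 3 it was 37, and in Ck replicate 3 it was 56. The median log2 deviation of the members was -0.061, -0.067, -0.070 and 0.038 in the Ck libraries, 0.0998, 0.0403, 0.0024 and 0.113 in UL, 0.041, -0.009, 0.034 and 0.007 in UM, and -0.054, -0.052, -0.104 and 0.042 in UH. Ck and UH thus each held 3 libraries below 0 and 1 above, whereas no UL library was below 0. Group means of these medians were -0.040 ± 0.052 for Ck, 0.064 ± 0.052 for UL, 0.018 ± 0.023 for UM and -0.042 ± 0.061 for UH (SD, n = 4 libraries).

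Replicate 4 was the highest of its group in Ck, UL and UH, though not in UM. Removing the library medians took away 18.6% of the members' variance. Group means held 32.6% of the variance before this step and 30.3% of the remainder after it. Where groups do not differ, 4 groups of 4 libraries hold 20% on average; the members were chosen by the same values, so nothing is read from these shares. The first principal component of the members took 27.3% and ran from UL replicates 4 and 1 at one end to UH replicate 3 at the other; the second took 15.5% and set UH replicate 4 opposite Ck replicate 2.

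**Figure D3:**
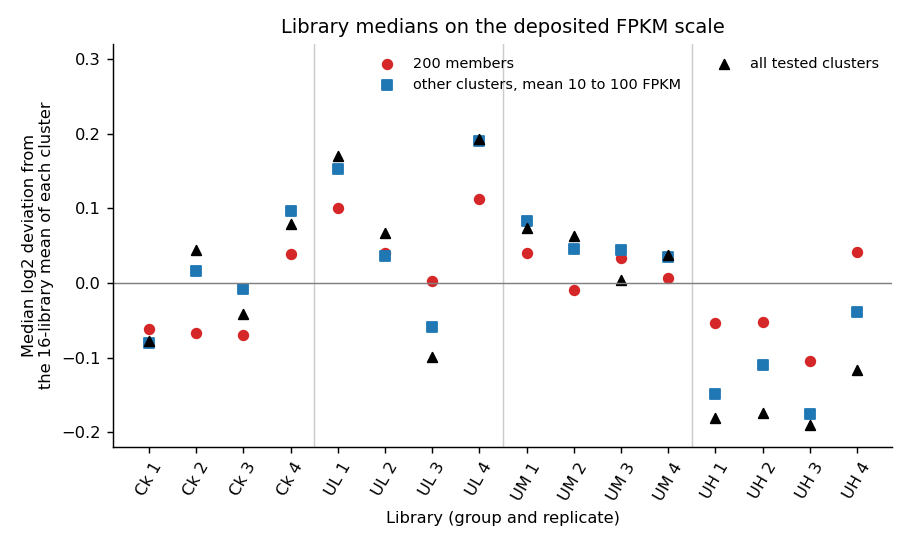
Median log2 deviation of each library from the 16-library mean of each cluster, for the 200 members, the other clusters with a mean of 10 to 100 FPKM and all 36003 tested clusters. The members range from -0.104 to 0.113, while the tested clusters range from -0.190 to 0.192 and are lowest in the 4 UH libraries.

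Library medians of the whole table had a wider span than those of the members. The choice by low SD over these same libraries favours this, and no test was made. The 36003 tested clusters reached 1 FPKM in 4 or more libraries and were not limited to the band. Their library medians ran from -0.190 to 0.192, a span of 1.30-fold. It was 1.29-fold in the rest of the band and 1.16-fold for the members. The gap was widest in UH. There the median of the tested clusters was -0.180, -0.174, -0.190 and -0.116, lower than that of the members in each of the 4 libraries. In UL replicate 3 the tested clusters had a median of -0.099 and the members 0.002, and in Ck replicate 2 the order was turned, with 0.044 for the tested clusters and -0.067 for the members. Within groups, library medians of the tested clusters had an SD of 0.133 in UL, 0.073 in Ck, 0.033 in UH and 0.031 in UM.

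Members of different length or level did not deviate alike in every library. In UL replicate 4, members of at least the median length had a median deviation of 0.150 and shorter members 0.055. In Ck replicate 2 these values were -0.027 and -0.108. Estimated mean fragment lengths were 294 bases in UL replicate 4, 293 in UH replicate 2 and 271 in Ck replicate 2, and the longer members of UH replicate 2 lay lower than the shorter ones (-0.060 against -0.041). The part of fragment length in these values was not tested. In UH the longer members lay below the shorter ones in 4 of 4 libraries (longer minus shorter -0.041, -0.018, -0.010 and -0.013). This was not particular to UH. The same order held in UL replicates 1, 2 and 3 (-0.026, -0.010 and -0.009) and UM replicates 2, 3 and 4 (-0.008, -0.034 and -0.003). It also held in Ck replicate 1 (-0.017), and the order was turned in the remaining libraries. When the members were divided at their median level instead, the more abundant ones lay above the less abundant ones in 4 of 4 UH libraries (more minus less abundant 0.037, 0.028, 0.021 and 0.037) and below them in UL replicate 4 (-0.067). They also lay above in Ck replicate 1 (0.015), UL replicate 3 (0.038) and UM replicate 2 (0.002), and below in the remaining libraries. The 2 divisions are linked: median length was 3209 bases in members of 10 to 20 FPKM and 2210.5 in those of 50 to 100.

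Shifts of the members between groups were small on the deposited scale. UL minus Ck had a median log2 difference of 0.098 over the 200 members, a ratio of 1.07, with 160 members higher in UL. For UM minus Ck the median was 0.055 with 146 members higher, and for UH minus Ck it was -0.012 with 93 higher and 107 lower. In the same order, the pooled SD of library medians within these groups was 0.052, 0.041 and 0.057. The UL and UM medians were larger than this SD, and the UH median was smaller. That SD describes single libraries, whereas each difference compares means of 4 libraries. The UH minus Ck value had no firm sign, since it became 0.014 without Ck replicate 4 and 0.016 without UH replicate 3.

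Between the groups whose names start with U, the medians were all below 0 as deposited. UM minus UL gave -0.057, with 65 members higher in UM. UH minus UL gave -0.094, the lowest of the 6 medians, with 46 higher and 154 lower. UH minus UM gave -0.066, with 57 higher. In the same order the rest of the band had medians of -0.100, -0.297 and -0.138, and against Ck it had 0.114 in UL, 0.065 in UM and -0.115 in UH. In all 6 comparisons the members thus had medians nearer to 0 than the rest of the band. The rule favours this, and no test was made. As all comparisons with a given group share its libraries, they are not independent of each other.

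**Figure D4:**
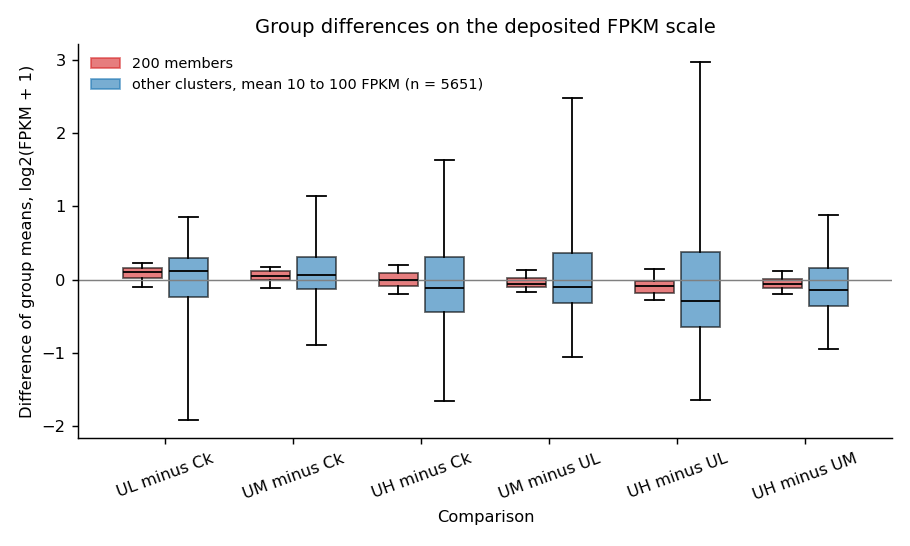
Difference of group means of log2(FPKM + 1) in 6 comparisons for the 200 members and the other 5651 clusters with a mean of 10 to 100 FPKM; boxes show quartiles and median, whiskers the 5th and 95th percentiles. Member medians lie between -0.094 and 0.098, and the boxes of the members are narrower than those of the other clusters, as the choice by SD requires.

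The groups did not follow a single pattern over the members. UL was the highest group mean in 110 members, UM in 44, UH in 30 and Ck in 16. UH was the lowest in 92, Ck in 77, UM in 16 and UL in 15. The commonest combination was UL highest with UH lowest (58 members), followed by UL highest with Ck lowest (42). Differences of more than 0.2 in log2 were seen in 47 members for UH minus UL, 24 for UL minus Ck, 21 for UH minus Ck, 9 for UH minus UM, 7 for UM minus UL and 3 for UM minus Ck. In the rest of the band 84.6% of clusters passed this size for UH minus UL, 64.8% for UL minus Ck, 73.2% for UH minus Ck, 65.5% for UH minus UM, 69.1% for UM minus UL and 52.9% for UM minus Ck. UH minus UL had the highest share and UM minus Ck the lowest in both sets.

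The greatest difference between UH and Ck belonged to Cluster-9253.45570 (6280 bases). It had 25.95, 27.13, 25.79 and 28.9 FPKM in Ck, 29.17, 28.12, 30.25 and 29.34 in UL, 27.82, 28.89, 26.61 and 31.68 in UM, and 33.92, 34.74, 35.97 and 34.73 in UH. All UH values lay above all others, with a log2 difference of 0.36 from Ck and 0.25 from UL. The opposite extreme was Cluster-9253.46295 (3273 bases), which was lowest against Ck in both UM and UH. Its values were 12.69, 17.3, 15.83 and 14.81 FPKM in Ck, 13.38, 13.64, 13.42 and 16.22 in UL, 13.42, 14.04, 13.23 and 12.51 in UM, and 11.66, 11.64, 12.87 and 13.52 in UH. Here Ck replicate 1 lay within the UH range, so the groups overlapped, at log2 differences of -0.17 for UM and -0.26 for UH.

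Cluster-9253.50379 (4950 bases) and Cluster-9253.48036 (3755 bases) were among the members with the widest gaps between UL and UH, as was the longest member described above. The first held 14.34 to 16.57 FPKM in UL and 11.7 to 12.2 in UH, the second 19.12 to 22.44 in UL and 15.01 to 16.77 in UH. In log2 these differences were -0.35 for each. In both clusters the UH values were also below all Ck values, of which the lowest were 12.69 and 17.42 FPKM.

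The highest differences of UL and UM from Ck were smaller than the highest of UH, and the lowest were smaller in size than the lowest of UH. Cluster-9253.50940 (1622 bases) had Ck values of 78.39, 70.49, 64.98 and 85.96 FPKM. Its UL values of 98.22, 89.52, 90.28 and 91.22 FPKM did not overlap with these, a log2 difference of 0.30. Cluster-9253.46721 (3755 bases) had 12.16 to 13.25 FPKM in Ck and 11.16, 12.44, 8.91 and 12.36 in UL (-0.17), where UL replicate 3 was the lowest of all 16 libraries. Cluster-9253.50563 (3874 bases) was the member with the highest UM minus Ck difference (0.22), with 16.25 to 19.82 FPKM in Ck and 20.07 to 21.95 in UM. All UM and all UH values of this cluster, 19.95 to 21.92 FPKM in UH, lay above all Ck values.

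Calls from the fit of the whole table are given for completeness; nothing is read from them, since the rule selected against any difference. limma called 0 members between UL and Ck, where it called 0.0167% of all tested clusters; at an unadjusted p under 0.05 it was 8 members (4.0%) against 16.8% of tested clusters. Between UM and Ck it called 0 members against 0.1% of tested clusters (unadjusted 0 members against 11.5%), and between UM and UL 0 members against 3.22% (unadjusted 3 against 18.3%). UH against UM gave 0 members against 2.82% (unadjusted 4 against 20.4%), and the test of any difference among the 4 groups gave 0 against 18.9% (unadjusted 5 against 36.3%). UH against Ck gave 1 member, Cluster-9253.45570, higher in UH, where 3.39% of tested clusters were called higher and 11.2% in either direction. This call was lost without Ck replicate 3 or any UH library. Those fits called 1709 to 2931 of 36003 tested clusters, beside 4049 with all libraries. UH against UL gave 6 members, all lower in UH, where 19.9% of tested clusters were called lower and 28.7% in either direction. That count was 2 without UL replicate 1, where 8093 of 36003 tested clusters were called in either direction. It was 3 without UH replicate 1 or UH replicate 2 (7585 and 7983 tested clusters). Without UL replicate 3 it was 11 (11498 tested clusters).

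Counts of members without overlap between 4 and 4 values were 14 for UL and Ck, 12 for UM and Ck, 18 for UH and Ck, 21 for UM and UL, 32 for UH and UL and 18 for UH and UM. Over all tested clusters the shares were 4.96, 6.43, 17.1, 13.5, 29.6 and 16.4%. As the members were chosen for a low SD over these same libraries, the counts are given beside these shares without a reading.

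What the members show about group shifts depended on the scale. Median ratio scaling divides a library by its median ratio to the geometric mean of 38721 clusters listed above 0 in all libraries, and its factors were 0.843 to 0.888 in UH, 0.914 to 1.22 in UL, 1.00 to 1.08 in UM and 0.927 to 1.07 in Ck. It moved the median of all tested clusters between UH and Ck from -0.15 to -0.00 in log2, and between UH and UL from -0.27 to -0.05. On that scale the members had a median of 0.20 for UH minus Ck with 193 higher, 0.24 for UH minus UL with 196 higher and 0.21 for UH minus UM with all 200 higher. For UH minus UL and UH minus UM this direction was opposite to that on the deposited scale, on which UH minus Ck had no firm sign. For UL minus Ck and UM minus Ck the medians became -0.025 and -0.012, and for UM minus UL -0.000.

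Scaling to the library sum went the other way for UH against Ck. As TPM, in which all libraries have the same sum, UH minus Ck was -0.090 and UM minus Ck was -0.067, so the sign of UM turned as well. Library sums without the 10 most abundant clusters gave -0.079 for UH minus Ck and 0.031 for UM minus Ck. Quantile normalization gave 0.030 for UH minus Ck, -0.10 for UH minus UL and 0.002 for UH minus UM. The sign of UL minus Ck was above 0 as deposited, as TPM, by quantiles and by sums without the abundant clusters, and below 0 by median ratios alone.

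**Figure D5:**
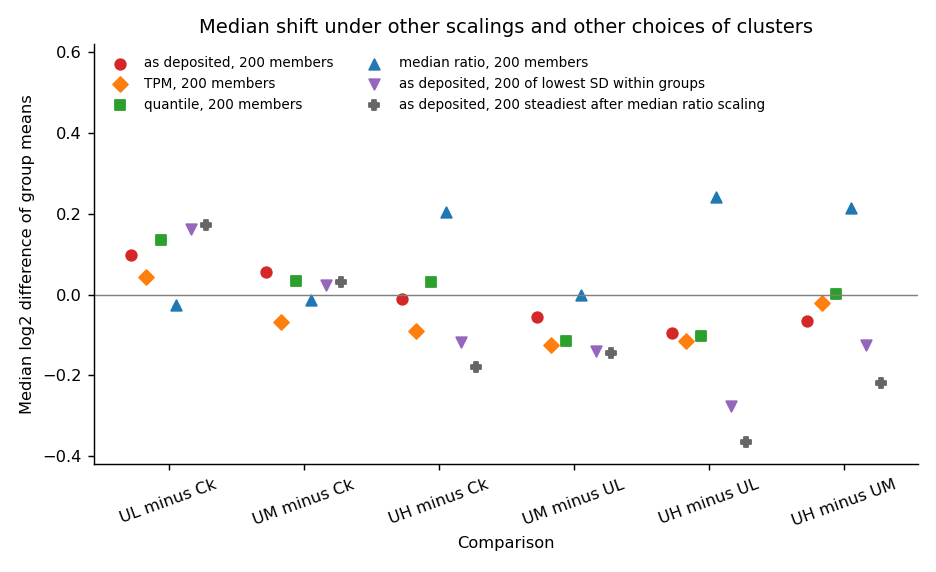
Median log2 difference of group means in 6 comparisons, for the 200 members on the deposited, TPM, quantile and median ratio scales, and on the deposited scale for 200 clusters of lowest SD within groups and for the 200 steadiest after median ratio scaling. In the 3 comparisons with UH the members lie at 0.20 to 0.24 by median ratios and at -0.094 to -0.012 as deposited.

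Which clusters counted as steady also followed the scale. Of the 200 steadiest clusters of the band after median ratio scaling, 39 were members, 19.5% of either list. On the deposited scale that list had medians of -0.18 for UH minus Ck, with 3 of 200 higher, and of -0.36 for UH minus UL and -0.22 for UH minus UM, with 0 higher in either. On its own scale its medians were 0.030, -0.030 and 0.060. In these 3 comparisons each list had medians within 0.1 of 0 on the scale that chose it, and further from 0 on the other scale. It was similar to the members in length, with a median of 3322 bases.

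A choice that does not use group differences gave other values. The 200 clusters of lowest SD within groups shared 95 with the members (47.5% of either list). As deposited their median was 0.16 for UL minus Ck, 0.024 for UM minus Ck, -0.12 for UH minus Ck and -0.27 for UH minus UL. The UH values are near the medians of the rest of the band, -0.115 and -0.297. For UL minus Ck and UM minus Ck the rest of the band had 0.114 and 0.065, which are less near. When UH was left out of the choice, 118 of 200 clusters were shared with the members (59.0%), and the median in the UH libraries not used was -0.049 for UH minus Ck and -0.13 for UH minus UL. With UL or UM left out, the medians against Ck were 0.15 for UL and 0.068 for UM. In all 3 cases the held-out group lay further from Ck than with the 200 members, in the same direction.

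Setting the table to the members' own medians changed library levels by factors of 0.930 to 1.08. The members were chosen for a low SD on the deposited scale, so the rule favours factors near 1. It thereby favours calls close to those as deposited, and nothing is read from that closeness. Between UH and Ck, limma then called 4671 of 36003 clusters, 1378 that rose and 3293 that fell (70.5% fell), beside 1219 and 2830 as deposited (69.9%) and 2023 and 1568 by median ratios (43.7%). Between UH and UL, 59.6% of calls fell on the scale of the members, 69.1% as deposited and 34.2% by median ratios; between UH and UM it was 87.1, 90.2 and 63.2%. The deposited count between UH and Ck, 4049 clusters, changed when 1 library was left out. Leaving out Ck replicates 1 to 4 gave 4571, 2796, 2395 and 1984 calls in turn. Leaving out UH replicates 1 to 4 gave 1709, 1815, 2931 and 2222 calls. Such fits also hold 1 library fewer, and the cause of these changes was not tested. No amount of added reference RNA or of RNA per spider is given in the sources used here, so the scales could not be ranked. Nor can less RNA per cell be told from fewer cells of a type in whole spiders.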

How the data were processed

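The authors deposited FPKM values for 136360 sequence clusters, rounded to 2 decimals, with a length for each, per the file headers and the values. Per the labels' protocols, poly-A RNA was primed with random hexamers for Illumina sequencing. The sources used here name no assembler, aligner or counting tool; the genome build in the submitters' processing notes is a mouse build and was not used. The members and the comparisons were chosen with earlier results of these data known.

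Depth was estimated by a search for the depth and mean fragment length that made values worth 1 to 10 fragments, in clusters of 700 to 1000 bases, most nearly whole; 99.1 to 99.3% came within 0.1 of a whole fragment. In this search and in the fragment estimates, length was the listed length less the mean fragment length plus 1 base. Counting SDs assume Poisson counts and cover counting error only. Group comparisons used limma 3.58.1 (R 4.3.3, two-sided, mean-variance trend, 36003 clusters that reached 1 FPKM in 4 or more libraries, pseudocount 1, all 16 libraries in the fit, Benjamini-Hochberg adjusted p under 0.05); it was tested on simulated data. A log2 difference of log2(FPKM + 1) understates changes of low clusters. Nothing says that replicates were separate animals, so p-values reflect a spread that may be technical. Python 3.11.15 was used for the rest.

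Clusters named in the text were the 5 steadiest members, 3 just inside and 3 just outside the 200, the 3 highest and 3 lowest in level, the 2 longest and 2 shortest, the 4 with the greatest range of group means, and the extremes of each comparison with Ck. No sequence was at hand for any cluster, so none is shown.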

Additional observations from a re-analysis of the deposited data

Results flagged for a closer look

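Of 116 groups of 4 libraries tested for a value far from the other 3, by Dixon's ratio of gap to range, 5 were marked; chance marks about 1 in 20. The median log2 deviation of the members was 0.038 in Ck replicate 4, beside -0.070 to -0.061 in the other Ck libraries. Cluster-9253.48817 had 8.14 FPKM in UM replicate 2, beside 10.17 to 10.52 in the other UM libraries. Cluster-9253.51969 had 108.35 FPKM in UM replicate 1, beside 92 to 93.54. Cluster-9253.40526 had 8.37 FPKM in UH replicate 4, beside 10.06 to 10.21. Cluster-9253.46295 had 16.22 FPKM in UL replicate 4, beside 13.38 to 13.64.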

How the results depend on the processing

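Median log2 differences of the members moved by less than the spread between libraries with a pseudocount of 0.1, with 100 or 400 members, with a band of 5 to 200 FPKM and with 1 group left out of the choice. They moved further under other scalings. As TPM they were 0.043 (UL minus Ck), -0.067 (UM minus Ck), -0.090 (UH minus Ck) and -0.12 (UM minus UL). By median ratios they were -0.025, -0.012, 0.20 and -0.00050 in that order, 0.24 for UH minus UL and 0.21 for UH minus UM. By quantiles they were -0.11 for UM minus UL and 0.0019 for UH minus UM. With sums that leave out the 10 most abundant clusters they were -0.079 (UH minus Ck), -0.10 (UM minus UL) and -0.18 (UH minus UL). The 200 steadiest after median ratio scaling gave 0.17 (UL minus Ck), -0.18 (UH minus Ck), -0.15 (UM minus UL), -0.365 (UH minus UL) and -0.22 (UH minus UM). The 200 of lowest SD within groups gave 0.16, -0.12, -0.14, -0.27 and -0.125 in that order. The cause was not tested.

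With 1 library left out, the ranges were 0.085 to 0.13 for UL minus Ck, 0.044 to 0.077 for UM minus Ck, -0.034 to 0.016 for UH minus Ck, -0.079 to -0.034 for UM minus UL, -0.14 to -0.083 for UH minus UL and -0.098 to -0.034 for UH minus UM.

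Members called between UH and Ck were 17 by median ratios (8.5%, all higher in UH, against 9.97% of tested clusters, 5.62% higher). They were 0 without the filter on low values, where 1.35% of tested clusters were called. In a fit of both groups alone they were 0, where 1171 of 36003 tested clusters were called. Between UH and UL, where the 6 as deposited were all lower in UH, they were 41 by median ratios (20.5%, all higher, against 19.2% of tested clusters, 12.7% higher), 13 by quantiles (3 higher and 10 lower; 21.7% of tested clusters), 10 with a pseudocount of 0.1 (1 higher and 9 lower; 29.0%) and 1 without the filter (lower; 5.77%). On the scale of the members they were 7 (6 higher and 1 lower), against 24.6% of tested clusters (9.92% higher and 14.7% lower). Between UH and UM they were 3 by median ratios (all higher; 1.48% of tested clusters). Any difference among the 4 groups gave 12 members by median ratios (14.3% of tested clusters). It gave 1 each with a pseudocount of 0.1 (20.1%), by quantiles (15.5%) and on the scale of the members (17.4%). With 1 library left out the counts were 0 to 1 for UH against Ck, where 1709 to 4571 tested clusters were called. They were 2 to 11 for UH against UL, where 7585 to 11498 were called, and 0 in the other 5 tests.

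Over the whole table, UL against Ck gave 12 calls on the scale of the members (6 as deposited), UH against UM 532 by median ratios (1017) and UM against Ck 12 with a replicate block (36). With 1 library left out the counts were 2 to 2135 (UL and Ck), 16 to 341 (UM and Ck), 1709 to 4571 (UH and Ck), 16 to 839 (UM and UL), 7585 to 11498 (UH and UL) and 377 to 738 (UH and UM). Same-numbered libraries of different groups deviated with r of -0.28 to 0.26 (median -0.025), beside -0.39 to 0.46 (median 0.011) for other numbers. Of 16 libraries, 4 were closest to one of their own number. No pairing by number was seen, although these values cannot exclude it. The replicate block gave 4 members between UH and UL (6 without it), where 9921 of 36003 tested clusters were called. Between UH and Ck it gave 1 member, where 3538 tested clusters were called. Precision is limited by 4 libraries per group and by depth in clusters under 857 bases. Median shifts of the members were -0.094 to 0.098, beside pooled SDs of library medians of 0.040 to 0.057.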
